A study of Mus musculus with 9 samples.

Results

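The genes described here encode the ATP-dependent chromatin remodelers of the SWI/SNF, CHD and ISWI families, with the ARID, DPF, ACTL6 and BAZ proteins that sit in or beside them. They were chosen by symbol: every Smarca to Smarce gene, Chd1 to Chd9, Arid1 to Arid5, Actl6a and Actl6b, Dpf1 to Dpf3, and Baz1a to Baz2b. Of the 42 symbols that matched, 41 had a value above 1 in at least 3 of the 9 libraries, among 12923 genes that passed the same filter and 24054 rows in all. Arid3c alone was left out, at 0 to 0.393 in the 9 libraries. At the other side of the filter, Baz1a was above 1 in 8 libraries, and the other 40 were above 1 in all 9. Smarca5-ps is a pseudogene, so its reads and those of Smarca5 may have been split between near-identical sequences and both values are uncertain.

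Poly-A RNA was sequenced from primary cortical neurons of wild-type C57BL/6 mice, cultured for 6 days in Neurobasal medium with the B27 supplement, which all 3 groups shared. Controls stayed in normoxia, a second group spent 7 hours in 0.2% oxygen (hypoxia), and the last spent the same time in 0.2% oxygen with 10 nM of the thyroid hormone T3 in the medium (hypoxia with T3). Each group has 3 libraries, numbered 1 to 3 for normoxia, 7 to 9 for hypoxia and 11 to 13 for hypoxia with T3 in the deposited table. Nothing in the labels tells if replicate libraries stem from different cultures or animals, so p-values measure only the spread between these libraries. There was no normoxic group with T3, and the labels do not say whether the medium was otherwise free of thyroid hormone.

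Remodelers use ATP to slide, evict or exchange nucleosomes. The SWI/SNF complex, called BAF in mammals, is built around Smarca4 (BRG1) or Smarca2 (BRM). As neural progenitors become neurons, several of its subunits are swapped: Actl6a gives way to Actl6b, the Phf10 and Dpf2 proteins give way to Dpf1 and Dpf3, and Ss18 gives way to Ss18l1. CHD proteins pair an ATPase with chromodomains that bind histone tails, and Chd3, Chd4 and Chd5 serve in the histone-deacetylating NuRD complex. ISWI enzymes, Smarca1 and Smarca5, space nucleosomes evenly, mostly together with a BAZ protein or Bptf.

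Values are TMM-scaled CPM as deposited, so they are not scaled to library size alone and column sums differ between libraries. Each library held 17182338 to 33937842 reads, and 1 read was worth 0.0302 to 0.0565 CPM on this scale. The oxygen label was checked on Slc2a1, a glucose transporter induced in hypoxia, which stood at 9.24 to 10.1 CPM in normoxia and 47.8 to 60.0 in hypoxia. For the T3 label no check is given here. Both genes planned for it, Hr and Klf9, hold values that are not whole numbers of reads. The 9 neuronal markers summed to 6944 to 7484 CPM in normoxia, 5369 to 5827 in hypoxia and 5243 to 5372 with T3. Of the 9, 3 were called lower and 0 higher in hypoxia, beside 19.3% lower and 14.3% higher over all tested genes. Most of the drop in the neuronal sum lay in Tubb3 (2262 to 2578, 922 to 1357 and 563 to 838 CPM). Without Tubb3 the sums overlapped, at 4666 to 4936, 4336 to 4699 and 4439 to 4809 CPM. Summed astrocyte markers (12 genes, with S100b below 1 throughout) were 324 to 487, 402 to 762 and 528 to 749 CPM in the same order. In hypoxia 3 of the 11 tested were higher and 0 lower, beside the same shares of all genes. The 10 progenitor and cell division markers summed to 56.6 to 166, 107 to 218 and 142 to 221 CPM, with Eomes below 1 throughout. Those of the oligodendrocyte lineage (8 genes) summed to 41 to 144, 79.7 to 213 and 133 to 189 CPM. Higher in hypoxia were 1 of the 9 tested progenitor and division markers and 1 of the 8 oligodendrocyte markers, with 0 lower in either list. All 7 microglial markers were below 1 in every library. The part of these cell type differences in the results that follow was not tested, and in bulk RNA fewer cells of a type and less RNA per cell cannot be told apart.

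To compare genes, CPM were divided by the kilobases of exon merged over all annotated transcripts of a gene. This length can exceed that of the transcripts expressed, so the comparison is approximate. On this scale the most abundant remodeler in normoxia was Chd3 at 102 ± 6.31 (SD, n = 3). It was followed by the BAF scaffold Smarcc2 at 92.7 ± 3.78 and the BAF ATPase Smarca4 at 80.0 ± 2.76. Chd5, a mostly neuronal CHD protein, stood at 53.9 ± 1.48 and the BAF subunit Smarcd1 at 45.7 ± 2.88. The neuronal subunits Actl6b (28.5 ± 1.39) and Dpf1 (21.3 ± 2.11) were far above their counterparts Actl6a (2 ± 0.45) and Dpf2 (4.96 ± 0.27) on this per-kilobase scale, while Dpf3, the other neuronal DPF form, was below Dpf2 at 2.52 ± 0.22. Baz1a was lowest at 0.17 ± 0.07.

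After 7 hours of hypoxia, the named remodelers that changed most were Dpf3, Arid1b, Smarca1, Arid5b, Arid4b and Baz2b, all lower, and Arid5a and Dpf2, both higher. Of the 41 genes, 5 were higher and 14 lower than in normoxia at an adjusted p under 0.05 (limma across all tested genes, Benjamini-Hochberg), together 46.3%. Over all 12923 genes 33.6% passed the same test, 14.3% higher and 19.3% lower. The median log2 change was -0.09 for the remodelers and -0.00 over all genes. With libraries scaled to equal column sums, which moved the median of all genes to 0.13, these medians turned positive, at 0.05 for the remodelers, and the split became 6 higher and 9 lower. Under that scaling Arid4a, Baz2b, Chd1, Smarcad1 and Smarcc1 lost their calls. Normoxia and hypoxia libraries did not overlap for 25 of the 41, beside 47.8% of all genes. The count of 5 higher genes was 2 without normoxia library 3, and 3 without normoxia library 1 or without hypoxia library 7, 8 or 9.

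T3 added to hypoxia went with lower values of Arid5b, Arid1b, Smarca1, Arid4b, Smarca2, Chd6, Chd9 and Smarcad1. These 8 of 41 (19.5%) passed the test against hypoxia alone, beside 6.48% of all genes, of which 2.73% were higher and 3.75% lower. None of the 41 was higher by limma. At an unadjusted p under 0.05, 2 were higher and 16 lower, beside 1632 and 1959 of all 12923 genes. edgeR called 0 higher and 6 lower, beside 324 and 428 over all genes. DESeq2 called 2 higher and 12 lower, beside 771 and 971 over all genes. Libraries with and without T3 did not overlap for 19 of the 41, beside 31.7% of all genes. The median log2 difference was -0.13, against -0.01 over all genes. All 8 calls were lost when hypoxia library 7 or 8, or T3 library 11 or 12, was left out, with adjusted p of 0.053 to 0.13, 0.068 to 0.17, 0.060 to 0.18 and 0.063 to 0.15. Without normoxia library 2, which enters this comparison only through the shared spread, 4 of the 8 remained, and without normoxia library 1 there were 5. Without the filter on low values Arid5b alone kept its call, and with only the 6 libraries of these groups fitted, Arid5b and Smarca2 did. The log2 differences of all 8 stayed negative in each of the 9 fits that left out a library.

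Hypoxia with T3 against normoxia gave 4 higher and 23 lower remodelers of 41 (65.9%), beside 55.1% of all genes (25.5% higher and 29.5% lower). Libraries of these groups did not overlap for 27 of the 41, beside 62.7% of all genes. The median log2 difference was -0.22, against 0.00 over all genes. With equal column sums the split was 7 higher and 19 lower, and Arid1a, Arid3b, Chd4 and Chd8 lost their calls. This comparison shares its libraries with the other 2, so its values are given beside theirs and not as separate evidence.

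**Figure D1:**
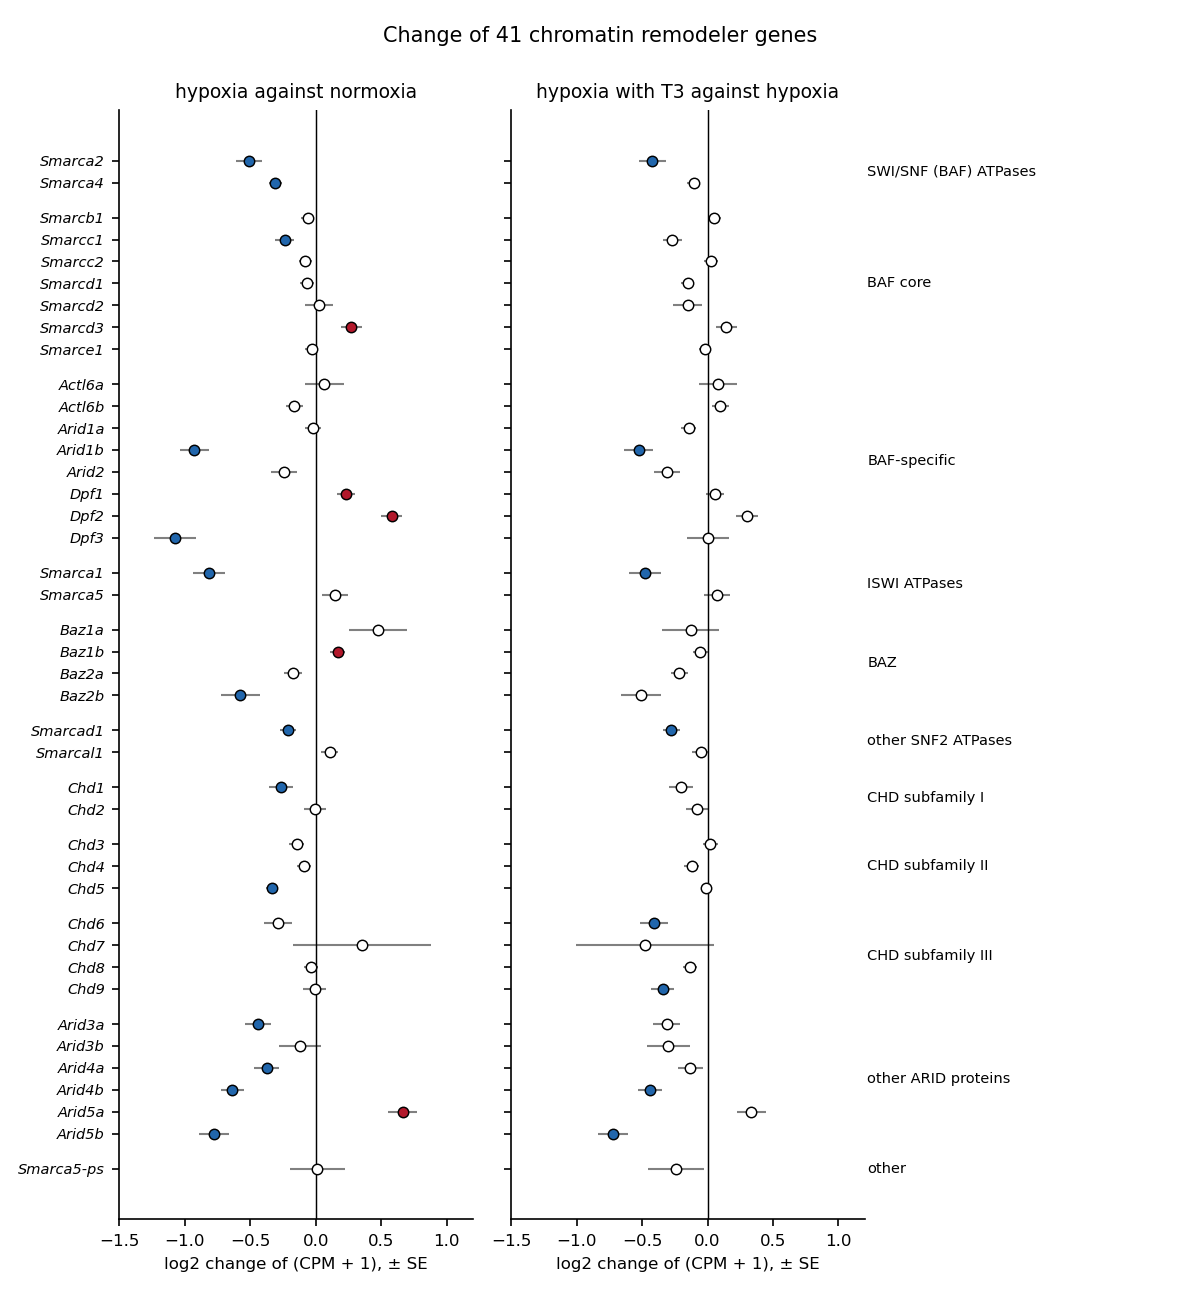
Log2 differences (CPM + 1) of the 41 remodelers, ordered by role, with bars of 1 standard error; the left panel sets hypoxia beside normoxia and the right panel sets T3 in hypoxia beside hypoxia alone. Red (higher) and blue (lower) points passed an adjusted p under 0.05: 5 and 14 on the left, 0 and 8 on the right.

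Promoters are shown for 4 members that changed in hypoxia, 3 higher and 1 lower. Set beside their values are ACGTG, 1 form of the hypoxia response element core, and AGGTCA, a thyroid hormone receptor half-site. Other forms of either element were not searched. Of these 4 promoters 3 hold ACGTG or AGGTCA, so they are not typical of all members. Dpf2, also higher in hypoxia, holds neither and is not printed. RefSeq promoters on GRCm38.p6 were found for 31 of the 41 genes (37 promoters). In the 250 bases before the start, ACGTG, searched on both strands, occurred in 3 of the 37 (8.11%): Baz1b, Dpf1 and Smarcb1. It occurred in 16.6% of all 32851 promoters and in 21.5% of the 12486 promoters of tested genes. AGGTCA, also on both strands, occurred in 3 of 37 (8.11%), in Baz1b, Baz2b and Dpf3, beside 14.0% of all promoters and 10.5% of those of tested genes. Among promoters of members lower in hypoxia, 0 of 13 held ACGTG and 2 of 13 AGGTCA. Among those of members higher in hypoxia, 2 of 5 held ACGTG and 1 of 5 AGGTCA. In the lines that follow, capitals mark these letters, read 5′ to 3′ on the gene's own strand with annotated exon removed. Baz1b (chr5:135187073-135187263, plus strand) holds ACGTG at 240 bases upstream overlapping TGACCT, the reverse complement of AGGTCA, at 237. Dpf1 (chr7:29303755-29303950, plus strand) holds ACGTG at 181 bases upstream. Dpf3 (chr12:83487737-83487986, minus strand) holds TGACCT at 152. Arid5a (chr1:36307483-36307732, plus strand) holds neither, which says only that these letters are not in this window.
Baz1b: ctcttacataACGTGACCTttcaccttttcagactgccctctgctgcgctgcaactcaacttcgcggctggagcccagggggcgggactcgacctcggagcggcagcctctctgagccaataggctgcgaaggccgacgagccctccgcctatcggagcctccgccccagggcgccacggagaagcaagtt
Dpf1: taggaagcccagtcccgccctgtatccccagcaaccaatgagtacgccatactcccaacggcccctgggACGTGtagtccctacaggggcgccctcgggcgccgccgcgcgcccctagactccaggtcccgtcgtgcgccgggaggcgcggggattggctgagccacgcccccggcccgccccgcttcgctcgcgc
Dpf3: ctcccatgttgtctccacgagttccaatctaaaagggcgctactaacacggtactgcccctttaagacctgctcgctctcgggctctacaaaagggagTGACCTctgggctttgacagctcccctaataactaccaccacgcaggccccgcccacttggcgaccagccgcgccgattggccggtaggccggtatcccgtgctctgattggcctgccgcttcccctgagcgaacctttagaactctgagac
Arid5a: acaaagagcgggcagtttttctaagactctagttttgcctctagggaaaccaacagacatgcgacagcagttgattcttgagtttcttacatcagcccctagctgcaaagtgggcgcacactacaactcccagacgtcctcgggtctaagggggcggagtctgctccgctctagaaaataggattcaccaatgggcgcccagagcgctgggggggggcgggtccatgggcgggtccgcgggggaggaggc

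Both BAF ATPases fell in hypoxia. Smarca2 (chr19:26605050-26778322, plus strand, mm10) read 477, 414 and 358 CPM in normoxia, 299, 312 and 261 in hypoxia, and 208, 207 and 235 with T3. The 3 groups did not overlap and lay in that order. Its log2 change was -0.51 (SE 0.10, adjusted p = 0.0034) in hypoxia, -0.42 (SE 0.10, adjusted p = 0.037) with T3 against hypoxia, and -0.93 (adjusted p = 2.9e-05) with T3 against normoxia. The call of Smarca2 with T3 against hypoxia was lost without normoxia library 2, hypoxia library 7 or 8, or T3 library 11 or 12 (adjusted p = 0.055 to 0.15). Smarca4, the alternative ATPase, read 537, 515 and 502 CPM in normoxia, 407, 439 and 408 in hypoxia, and 376, 385 and 405 with T3. Its log2 change in hypoxia was -0.31 (SE 0.05, adjusted p = 0.0013). The groups with and without T3 came within 2 CPM of each other, at 405 and 407, and their difference of -0.11 did not pass (adjusted p = 0.21).

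Among the large ARID subunits that decide which BAF form is assembled, Arid1b separated from Arid1a. Arid1b (chr17:4994332-5347656, plus strand) read 184, 175 and 178 CPM in normoxia, 91.3, 103 and 87.1 in hypoxia, and 54.4, 63.3 and 78.3 with T3, in 3 groups that did not overlap. Its log2 change was -0.93 (SE 0.11, adjusted p = 0.0002) in hypoxia, -0.53 (SE 0.11, adjusted p = 0.027) with T3 against hypoxia, and -1.46 (adjusted p = 3.2e-06) with T3 against normoxia. The call of Arid1b with T3 against hypoxia was lost without hypoxia library 7 or 8 or T3 library 11 or 12 (adjusted p = 0.070 to 0.12). Arid1a, its paralog in the same position of the complex, read 291, 254 and 258 CPM in normoxia and 267, 263 and 259 in hypoxia, which overlapped (log2 -0.02, adjusted p = 0.80, and 0.12 with equal column sums). With T3 it read 224, 242 and 248 CPM, below every other library, and the difference from normoxia was -0.17 (adjusted p = 0.035), a call lost without normoxia library 1 (adjusted p = 0.13), T3 library 11 (0.13) or T3 library 12 (0.063). Arid2, which marks the PBAF form, read 109, 107 and 116 CPM in normoxia, 91.0, 92.5 and 96.3 in hypoxia, and 62.0, 80.1 and 85.4 with T3. These groups did not overlap, but the hypoxia and T3 steps did not pass (adjusted p = 0.078 and 0.073), while the difference of T3 from normoxia did (-0.55, adjusted p = 0.00071).

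The 3 DPF subunits, which read acetylated histones, went different ways. Dpf3 (chr12:83213745-83487716, minus strand), expressed in neurons and muscle, read 11.3, 9.58 and 11.0 CPM in normoxia, 3.84, 4 and 5.93 in hypoxia, and 4.12, 4.03 and 5.59 with T3. Every hypoxic library lay below every normoxic one, with a log2 change of -1.07 (SE 0.16, adjusted p = 0.00074), while the groups with and without T3 overlapped (0.01, adjusted p = 0.99). Dpf1, the other neuronal DPF subunit, read 127, 112 and 104 CPM in normoxia, 136, 136 and 130 in hypoxia, and 144, 137 and 137 with T3. It was higher in hypoxia by a log2 of 0.23 (SE 0.07, adjusted p = 0.022), a call lost without normoxia library 2 (adjusted p = 0.061) or 3 (0.073), or hypoxia library 7 or 8 (0.059 each). Dpf2 (chr19:5896516-5913010, minus strand), the broadly expressed form, read 33.1, 33.4 and 30.2 CPM in normoxia, 46.8, 44.3 and 55.4 in hypoxia, and 61.4, 60.5 and 58.7 with T3. The 3 groups rose without overlap, by a log2 of 0.58 (SE 0.08, adjusted p = 0.00056) in hypoxia, and the further 0.30 (SE 0.08) with T3 just missed the threshold (adjusted p = 0.0504).

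Actl6b, the neuronal actin-like subunit, read 128, 121 and 116 CPM in normoxia, 107, 110 and 108 in hypoxia, and 128, 112 and 109 with T3. Hypoxia lay below normoxia in every library, but the difference of -0.16 (SE 0.07) did not pass (adjusted p = 0.077). Its counterpart Actl6a was at 7.78 ± 1.76, 8.10 ± 0.914 and 8.62 ± 0.948 CPM (SD, n = 3 each) in the same order, with overlapping groups and no call in any comparison. Among the swapped partners outside the chosen symbols, the neuronal form Ss18l1 was at 138 ± 3.56, 110 ± 4.50 and 101 ± 1.71 CPM. Its log2 change was -0.33 in hypoxia (adjusted p = 0.00078). The progenitor form Ss18 was at 10.5 ± 0.868, 13.7 ± 2.66 and 14.6 ± 2.93 CPM. Ss18 had no call in hypoxia (0.34, adjusted p = 0.12) and was higher with T3 than in normoxia (0.43, adjusted p = 0.035). Phf10, also a progenitor form, was at 42.0 ± 0.911, 46.4 ± 1.26 and 45.5 ± 0.710 CPM with no call.

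Of the 7 core BAF subunits, 1 was lower and 1 higher in hypoxia (together 28.6%), beside 33.6% of all genes. Smarcc1, a scaffold of the complex, read 227, 195 and 202 CPM in normoxia, 174, 186 and 167 in hypoxia, and 133, 150 and 155 with T3, without overlap. Its change in hypoxia was -0.24 (SE 0.07, adjusted p = 0.030), lost without normoxia library 1 (adjusted p = 0.10), hypoxia library 7 (0.070) or hypoxia library 9 (0.11), and the T3 step of -0.27 just missed (adjusted p = 0.052). Smarcd3, the BAF60 subunit used in heart and neurons, read 43.3, 44.9 and 42.3 CPM in normoxia, 48.9, 51.5 and 58.0 in hypoxia, and 63.9, 54.1 and 57.4 with T3. Hypoxia was above normoxia in every library, by 0.27 (SE 0.08, adjusted p = 0.022), a call lost without normoxia library 1 (adjusted p = 0.054) or 3 (0.060), or hypoxia library 9 (0.087). Smarcd1, the more abundant BAF60 subunit, was at 184 ± 11.6, 175 ± 3.40 and 158 ± 3.08 CPM, and only its difference of -0.22 between T3 and normoxia passed (adjusted p = 0.0043). Smarcc2, the other scaffold, was at 515 ± 21, 487 ± 15.8 and 496 ± 21.2 CPM with no call. The DNA-contacting subunit Smarce1, at 113 ± 4.81, 111 ± 2.46 and 109 ± 1.11 CPM, had no call either. The same held for Smarcb1, which anchors BAF to the nucleosome, at 98.5 ± 2.07, 94.3 ± 3.60 and 97.9 ± 3.90 CPM, and for Smarcd2 at 8.4 ± 0.806, 8.55 ± 0.300 and 7.62 ± 0.964 CPM.

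**Figure D2:**
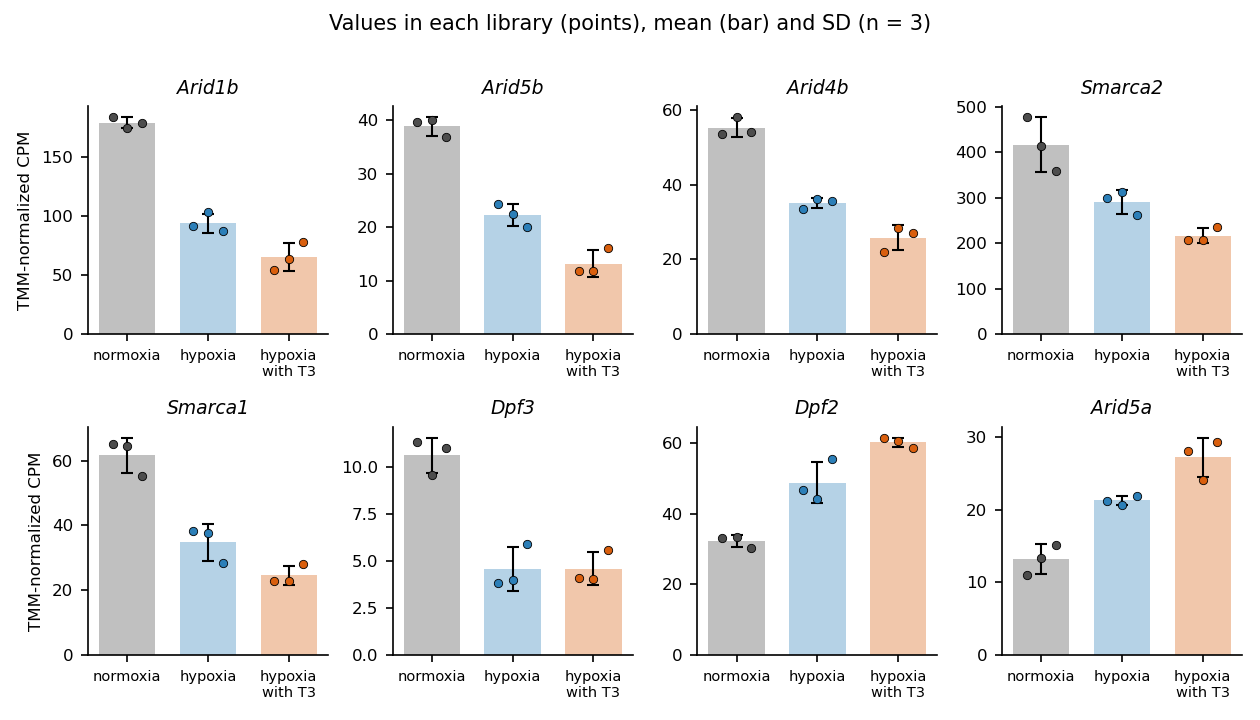
CPM in each library for the members the results turn on, with 1 point per library, a bar from 0 to the mean of each group and an error bar of 1 SD (n = 3). Smarca2, Arid1b and Smarca1 step down across the groups without overlap, Dpf3 is low in both hypoxic groups, and Arid5a and Dpf2 step up.

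The ISWI pair split. Smarca1 (chrX:47809368-47892974, minus strand), an ISWI ATPase known for its expression in neurons, read 65.0, 64.5 and 55.3 CPM in normoxia, 38.4, 37.6 and 28.3 in hypoxia, and 22.9, 22.8 and 28.0 with T3. The groups did not overlap, though hypoxia library 9 (28.3 CPM) came close to T3 library 13 (28.0 CPM). Its log2 change was -0.82 (SE 0.12, adjusted p = 0.00078) in hypoxia, -0.48 (SE 0.12, adjusted p = 0.045) with T3 against hypoxia, and -1.30 (adjusted p = 1.3e-05) with T3 against normoxia. The call of Smarca1 with T3 against hypoxia was lost without normoxia library 1 or 2, hypoxia library 7 or 8, or T3 library 11 or 12 (adjusted p = 0.053 to 0.17). Smarca5, the broadly expressed ISWI ATPase, read 59.2, 59.9 and 72.0 CPM in normoxia, 68.2, 65.6 and 77.7 in hypoxia, and 69.7, 84.1 and 69.0 with T3. Those groups overlapped and no comparison passed (0.15, 0.07 and 0.22, with adjusted p of 0.28, 0.69 and 0.084). The pseudogene Smarca5-ps was at 3.48 ± 0.83, 3.54 ± 0.963 and 2.86 ± 0.958 CPM, also with no call.

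BAZ proteins are the large partners that direct ISWI enzymes. Baz2b (chromosome 2) read 34.6, 36.8 and 36.9 CPM in normoxia, 23.1, 27.1 and 21.8 in hypoxia, and 12.8, 16.1 and 21.7 with T3. Its hypoxia change was -0.58 (SE 0.15, adjusted p = 0.014), a call lost without hypoxia library 9 (adjusted p = 0.055), and the T3 step of -0.51 did not pass (adjusted p = 0.062). Baz2a, which silences ribosomal RNA genes in the NoRC complex, read 50.6, 54.0 and 55.9 CPM in normoxia, 45.9, 48.0 and 47.6 in hypoxia, and 37.1, 42.3 and 42.3 with T3. Its 3 groups did not overlap, but only T3 against normoxia passed (-0.39, adjusted p = 0.00063). Baz1b, the WSTF protein of the Williams syndrome region, whose promoter is printed above, read 80.2, 82.1 and 73.1 CPM in normoxia, 85.3, 89.7 and 89.6 in hypoxia, and 82.5, 84.8 and 87.0 with T3. Its rise of 0.17 in hypoxia (SE 0.06, adjusted p = 0.041) was lost without normoxia library 1 (adjusted p = 0.060) or 3 (0.14), hypoxia library 7 (0.052), 8 (0.11) or 9 (0.11), or T3 library 12 (0.064). Baz1a, the ACF1 partner of Smarca5, read 0.624, 1.54 and 1.54 CPM in normoxia, 1.64, 1.90 and 2.68 in hypoxia, and 2.20, 2.1 and 1.18 with T3, with no call.

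Of the NuRD-type and Chd1-type CHD proteins, Chd5 and Chd1 fell in hypoxia. Chd5, a neuronal member of the NuRD-type subfamily, read 532, 503 and 516 CPM in normoxia, 409, 417 and 401 in hypoxia, and 406, 404 and 408 with T3. Its log2 change in hypoxia was -0.34 (SE 0.04, adjusted p = 0.00027), and the T3 group lay inside the range of hypoxia alone (-0.01, adjusted p = 0.89). Chd3 read 924, 849 and 821 CPM in normoxia, 775, 819 and 751 in hypoxia, and 827, 775 and 780 with T3, and its difference of -0.14 in hypoxia did not pass (adjusted p = 0.072). Chd4, the most widely used NuRD ATPase, read 205, 198 and 203 CPM in normoxia, 184, 182 and 204 in hypoxia, and 173, 183 and 167 with T3, and was lower only between T3 and normoxia (-0.21, adjusted p = 0.0078). Chd1, which binds methylated histone tails at active genes, read 27.1, 29.9 and 31.3 CPM in normoxia, 23.3, 23.3 and 26.4 in hypoxia, and 19.9, 23.6 and 19.8 with T3. Its change of -0.26 in hypoxia (SE 0.09, adjusted p = 0.045) was lost without normoxia library 2 (adjusted p = 0.11) or 3 (0.13), or hypoxia library 7 or 8 (0.12 each). Chd2, its close relative, was at 66.4 ± 0.811, 66.1 ± 1.77 and 62.9 ± 8.63 CPM with no call.

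In the Chd6 to Chd9 subfamily none of the 4 genes passed in hypoxia, beside 33.6% of all genes. At an unadjusted p under 0.05, 1 of the 4 passed, beside 5775 of all 12923 genes. Chd9 read 47.0, 44.9 and 43.5 CPM in normoxia, 44.7, 45.8 and 43.9 in hypoxia, and 30.1, 36.1 and 39.8 with T3. Only the T3 group stood apart, below every other library, by -0.34 (SE 0.09, adjusted p = 0.046) against hypoxia and -0.35 (adjusted p = 0.0060) against normoxia. The call against hypoxia was lost in 8 of the 9 fits that left out a library (adjusted p = 0.053 to 0.16). Chd6 read 98.2, 87.2 and 84.0 CPM in normoxia, 80.5, 76.1 and 63.5 in hypoxia, and 50.5, 51.4 and 63.6 with T3. Its hypoxia difference of -0.29 just missed (adjusted p = 0.055), and the T3 step of -0.41 passed (SE 0.11, adjusted p = 0.048), although T3 library 13 and hypoxia library 9 were level at 63.6 and 63.5 CPM. The T3 call of Chd6 was lost in 7 of those 9 fits (adjusted p = 0.0502 to 0.18). Chd8, known for its mutations in autism, read 166, 152 and 150 CPM in normoxia, 156, 150 and 150 in hypoxia, and 131, 141 and 143 with T3. Its difference of -0.17 between T3 and normoxia (adjusted p = 0.022) was lost without normoxia library 1 (adjusted p = 0.081) or T3 library 11 (0.084).

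Chd7, the CHARGE syndrome gene, active in neural progenitors and the oligodendrocyte lineage, varied more within groups than between them. It read 2.62, 8.07 and 13.7 CPM in normoxia, 3.56, 14.1 and 13.7 in hypoxia, and 3.87, 8.05 and 7.43 with T3. Normoxia library 1, hypoxia library 7 and T3 library 11 were the lowest of their groups. No comparison passed (log2 differences of 0.36, -0.48 and -0.13, with adjusted p of 0.63, 0.60 and 0.86). The summed progenitor and division markers were 56.6, 95.5 and 166 CPM in normoxia, 107, 180 and 218 in hypoxia, and 173, 221 and 142 with T3. In normoxia and hypoxia the lowest library was the same for Chd7 and for these markers, and in the T3 group it was not. The summed oligodendrocyte lineage markers were 41, 82.2 and 144 CPM in normoxia, 79.7, 203 and 213 in hypoxia, and 133, 189 and 136 with T3. Their lowest library was that of Chd7 in all 3 groups. The part of either list in the Chd7 values was not tested.

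**Figure D3:**
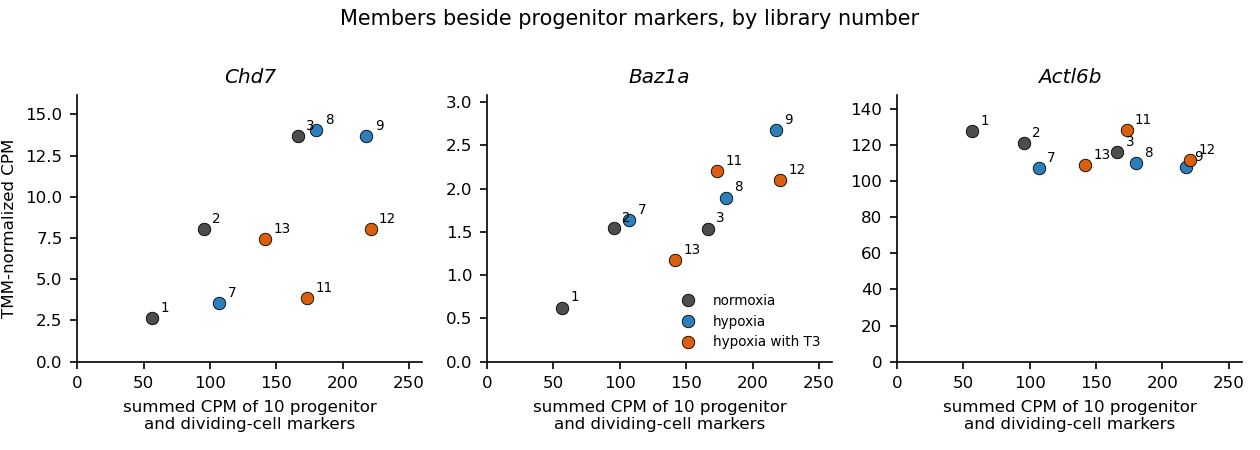
Chd7, Baz1a and Actl6b in each of the 9 libraries (CPM, vertical axis) against the summed level of 10 progenitor and cell division markers (CPM, horizontal axis), with the groups by colour. Chd7 spans 2.62 to 14.1 CPM, with a low library in every group.

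Of the 6 other ARID proteins, 1 was higher (16.7%) and 4 lower (66.7%) in hypoxia, beside 14.3% and 19.3% of all genes. Arid5b (chr10:68092520-68278740, minus strand), which brings the histone demethylase Phf2 to its targets, read 39.6, 40.0 and 36.8 CPM in normoxia, 24.3, 22.4 and 20.1 in hypoxia, and 11.8, 11.8 and 16.1 with T3. Its groups stepped down without overlap, by -0.78 (SE 0.12, adjusted p = 0.00078) in hypoxia, -0.72 (SE 0.12, adjusted p = 0.013) with T3 against hypoxia, and -1.5 (adjusted p = 3.8e-06) with T3 against normoxia. Without hypoxia library 7 or 8 or T3 library 11 or 12, the call of Arid5b with T3 against hypoxia was lost (adjusted p = 0.053 to 0.068). Arid4b, a subunit of the SIN3 repressor complex, read 53.5, 58.1 and 54.2 CPM in normoxia, 33.6, 36.2 and 35.6 in hypoxia, and 22.1, 28.4 and 27.0 with T3. These groups did not overlap either, at -0.64 (SE 0.09, adjusted p = 0.00052) and a further -0.44 (SE 0.09, adjusted p = 0.024). That further step of Arid4b lost its call without hypoxia library 7 or 8 or T3 library 11 or 12 (adjusted p = 0.063 to 0.11). Arid4a, its paralog in SIN3, read 50.7, 49.4 and 45.1 CPM in normoxia, 41.6, 32.0 and 38.2 in hypoxia, and 31.7, 33.4 and 36.3 with T3. It fell in hypoxia (-0.37, SE 0.10, adjusted p = 0.012), without a call with equal column sums, and the groups with and without T3 overlapped (-0.13, adjusted p = 0.41).

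Arid5a (chr1:36307733-36324029, plus strand), known for binding and stabilising inflammatory mRNAs, went the opposite way to Arid5b. It read 11.0, 13.3 and 15.2 CPM in normoxia, 21.2, 20.7 and 21.9 in hypoxia, and 28.1, 24.2 and 29.4 with T3. The groups rose without overlap, by 0.66 (SE 0.11, adjusted p = 0.0015) in hypoxia and 1.00 (adjusted p = 3.5e-05) between T3 and normoxia, and the T3 step of 0.34 did not pass (adjusted p = 0.083). Arid3a, a DNA-binding regulator first described in B cells, read 9.28, 8.91 and 8.4 CPM in normoxia, 6.33, 5.83 and 6.62 in hypoxia, and 4.51, 5.29 and 4.74 with T3. It fell by 0.44 in hypoxia (SE 0.10, adjusted p = 0.0072). Arid3b was at 4.01 ± 0.727, 3.58 ± 0.173 and 2.77 ± 0.772 CPM, and its difference of -0.42 between T3 and normoxia (adjusted p = 0.047) was lost without any of 7 of the 9 libraries (adjusted p = 0.055 to 0.19), all but normoxia library 1 and T3 library 13.

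Of the remaining SNF2 ATPases, Smarcad1, which restores silent chromatin after replication, read 47.5, 47.4 and 45.8 CPM in normoxia, 41, 39.3 and 40.5 in hypoxia, and 31.0, 34.6 and 33.8 with T3. The groups were tight and did not overlap. Its change was -0.22 (SE 0.06, adjusted p = 0.020) in hypoxia, lost without normoxia library 1 (adjusted p = 0.057) or 2 (0.059) or hypoxia library 8 (0.059), and -0.28 (SE 0.06, adjusted p = 0.033) with T3 against hypoxia. The T3 call was lost without hypoxia library 7 or 8 or T3 library 11 or 12 (adjusted p = 0.084 to 0.13). Smarcal1, which repairs stalled replication forks, was at 60.9 ± 2.84, 65.6 ± 4.35 and 63.2 ± 2.69 CPM with no call.

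Ratios between paralogs within a library do not depend on how the library was scaled. The ratio of Arid1b to Arid1a reads was 0.632, 0.688 and 0.691 in normoxia, 0.342, 0.392 and 0.336 in hypoxia, and 0.243, 0.261 and 0.316 with T3. The groups did not overlap, and the log2 ratio differed by -0.91 (SE 0.08) in hypoxia, -0.39 (SE 0.13) with T3 against hypoxia and -1.30 (SE 0.12) with T3 against normoxia. Smarca2 to Smarca4 was 0.888, 0.804 and 0.713 in normoxia, 0.734, 0.711 and 0.639 in hypoxia, and 0.553, 0.538 and 0.580 with T3. Here normoxia and hypoxia overlapped (-0.20, exact permutation p = 0.20), and the T3 libraries lay below both (-0.32 and -0.52). Baz2b to Baz2a was 0.683, 0.683 and 0.661 in normoxia, 0.502, 0.566 and 0.457 in hypoxia, and 0.345, 0.381 and 0.512 with T3. It was lower in every hypoxic library than in normoxia, and the groups with and without T3 overlapped.

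Chd5 to Chd4 was 2.6, 2.54 and 2.54 in normoxia, 2.22, 2.29 and 1.97 in hypoxia, and 2.35, 2.20 and 2.45 with T3, with every hypoxic library below normoxia. Chd3 to Chd4 ranged from 3.69 to 4.79 and the neuronal to progenitor exchange pair Actl6b to Actl6a from 11.5 to 20.6, both with overlap in all 3 comparisons. These 6 ratios in 3 comparisons make 18 two-sided exact permutation tests. With 3 libraries against 3 the smallest p that the test can give is 0.10, reached where groups did not overlap, and the smallest value adjusted over the 18 was 0.20, so none could pass 0.05.

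**Figure D4:**
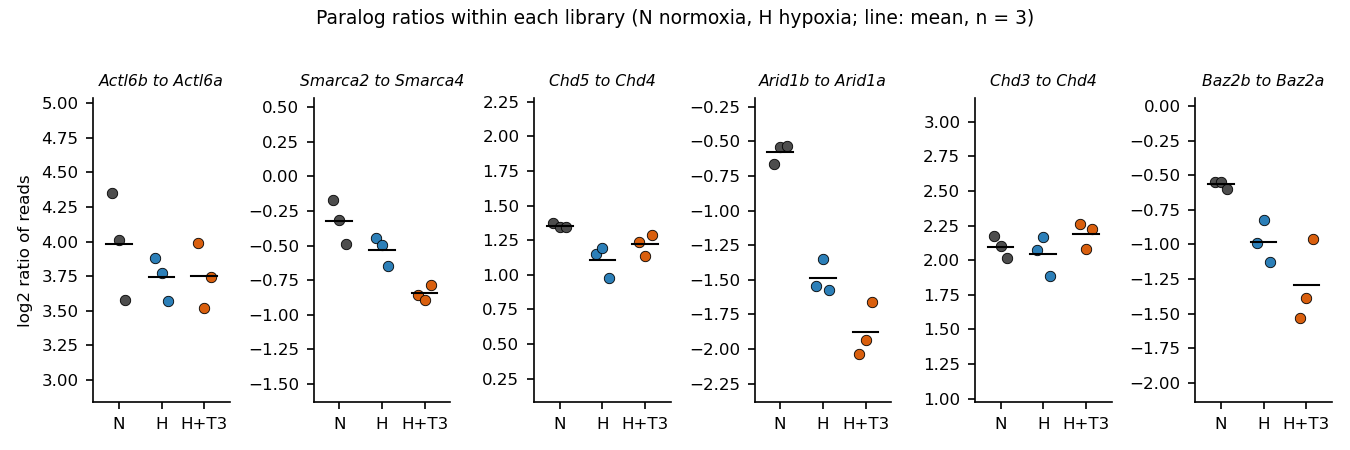
Log2 ratio of reads of 6 paralog pairs within each library, with a bar at the mean of each group of 3 libraries. Arid1b to Arid1a steps down from normoxia to hypoxia to hypoxia with T3 without overlap, while Chd3 to Chd4 and Actl6b to Actl6a overlap in all comparisons.

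The remodelers are long genes, with a median genomic span of 58.9 kb against 25.5 kb over the 12274 tested genes with a single gene model (95% of those tested). The split at 100 kb used here was chosen after values were seen. Of the 13 remodelers spanning at least 100 kb, 7 were lower in hypoxia (53.8%) and 0 higher, beside 55.3% lower among all 1951 such genes. The lower ones were Arid1b (353 kb), Baz2b (310 kb), Dpf3 (274 kb), Arid5b (186 kb), Smarca2 (173 kb), Arid4b (136 kb) and Smarcc1 (122 kb). The other 6 did not pass: Chd9 (226 kb, log2 -0.01), Chd7 (177 kb, 0.36), Chd6 (162 kb, -0.29), Baz1a (121 kb, 0.48), Arid2 (117 kb, -0.24) and Chd2 (115 kb, -0.01). Of the 28 shorter remodelers, 7 were lower (25%) and 5 higher (17.9%), beside 12.7% and 16.6% of 10323 genes. Against hypoxia alone, T3 went with 6 lower of the 13 long ones (46.2%, beside 15.1%) and 2 lower of the 28 shorter ones (7.14%, beside 1.65%). Across genes, Spearman's rho between span and log2 change was -0.52 in hypoxia and -0.64 with T3 against hypoxia over the 41 remodelers, and -0.47 in both over the 12274 genes. Genes are not independent replicates, and these points share their libraries. The 7 shorter remodelers lower in hypoxia were Smarca4 (88.1 kb), Smarca1 (83.6 kb), Arid4a (82.6 kb), Smarcad1 (73.5 kb), Chd1 (67.6 kb), Chd5 (51.5 kb) and Arid3a (28.0 kb). The 5 higher were Baz1b (58.9 kb), Smarcd3 (33.6 kb), Dpf2 (16.5 kb), Arid5a (16.3 kb) and Dpf1 (14.3 kb). Actl6b (16.1 kb, -0.16) and Smarcd1 (11.9 kb, -0.07), also short, had no call in hypoxia. The part of gene length in the changes was not tested.

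**Figure D5:**
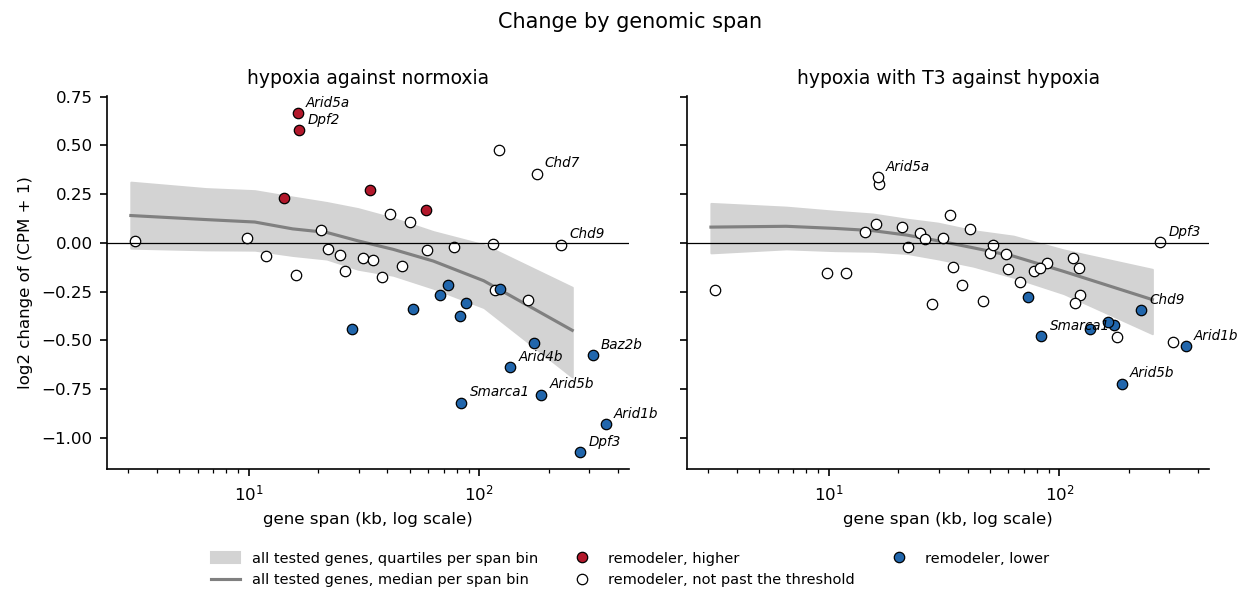
Log2 difference against genomic span (kb, log axis) for the 41 remodelers as points, over the median and quartiles of all tested genes in 10 bins of span, with hypoxia set beside normoxia on the left and T3 in hypoxia beside hypoxia alone on the right. On the left, Arid1b (353 kb) and Dpf3 (274 kb) lie low while Chd9 (226 kb) and Chd7 (177 kb) do not, and Arid5a (16.3 kb) and Dpf2 (16.5 kb) lie high while the short Actl6b (16.1 kb) does not.

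Partners and related remodelers outside the chosen symbols were taken from 5 lists, of which 67 of 68 genes were tested. In hypoxia 8 were higher and 11 lower (28.4%), beside 33.6% of all genes, with a median log2 change of -0.02 that stood at -0.09 in the remodelers. Of the 13 BAF partners 4 were lower and 0 higher, among them Ss18l1 (-0.33, SE 0.05, adjusted p = 0.00078), the PBAF subunit Pbrm1 (-0.33, SE 0.07, adjusted p = 0.0054) and Bcl11b, a zinc finger protein of deep-layer cortical neurons (-0.39, SE 0.10, adjusted p = 0.013). By unadjusted p under 0.05, 5 of the 13 passed, 1 higher and 4 lower, beside 5775 of all 12923 genes. Of the 12 NuRD partners 2 were higher, Mta2 (0.27, SE 0.07, adjusted p = 0.012) and Mbd3 (0.15, SE 0.05, adjusted p = 0.046), and 0 lower. Of the 5 ISWI partners only Bptf, the large NURF subunit, was lower (-0.18, SE 0.05, adjusted p = 0.029). The 27 tested genes of the INO80, SRCAP and TIP60 complexes had 6 higher, with Ing3 (0.41, adjusted p = 0.0049) and Znhit1 (0.28, adjusted p = 0.0061) among them, and 3 lower, of which Ep400, the TIP60 ATPase, had the smallest adjusted p (-0.32, SE 0.05, adjusted p = 0.0014). The Ep400 change is uncertain, as its row holds values that are not whole numbers of reads (next paragraph). Of 10 other SNF2 ATPases 3 were lower: Atrx (-0.43, SE 0.07, adjusted p = 0.00094), Shprh (-0.24, adjusted p = 0.018) and Rad54l2 (-0.24, adjusted p = 0.040).

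With T3 against hypoxia, 3 of the 67 partners passed (4.48%), beside 6.48% of all genes. Bcl11b was at 177 ± 14.9 CPM in normoxia, 134 ± 10.3 in hypoxia and 99.2 ± 14.1 with T3, with a log2 difference of -0.44 (SE 0.10, adjusted p = 0.035) in the last step. Rad54l2 was at 58.2 ± 3.51, 49.2 ± 3.20 and 37.9 ± 3.51 CPM, with a difference of -0.37 (SE 0.08, adjusted p = 0.031). Ep400 was at 125 ± 7.51, 99.5 ± 1.24 and 123 ± 3.28 CPM, higher with T3 than in hypoxia alone by 0.30 (adjusted p = 0.019), with a difference of -0.03 between T3 and normoxia (adjusted p = 0.71). Its row holds values that are not whole numbers of reads, as those of only 35 rows of the table do, and how they were made is not given in the sources used here. Over all rows such values numbered 4, 1 and 1 in normoxia libraries 1 to 3 and 22, 18 and 25 in hypoxia libraries 7 to 9. In T3 libraries 11 to 13 there were 22, 22 and 27. The differences of Ep400 between groups are therefore uncertain. Between T3 and normoxia 14 partners were higher and 21 lower (52.2%), beside 55.1% of all genes.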

How the data were processed

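RNA of mouse cortical neurons was sequenced in 9 libraries, 3 groups of 3. Per the submitters' processing notes, reads were processed with Bowtie2 2.1.0, RSEM 1.2.15, edgeR and the mm10 genome. The authors deposited 1 table of TMM-scaled signal values (CPM). Column sums ran from 945822 to 1091200. Values were whole multiples of 1 read for 99.89% to 99.996% of values in each library (tolerance 0.01 reads), so whole reads were recovered (17182338 to 33937842 per library), and counting error limits low genes such as Baz1a. Across libraries, 35 rows had values off this step, none of them a remodeler. 1 value column has no sample and was not used.

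Genes above 1 in at least 3 libraries were tested with limma 3.58.1 (R 4.3.3) on log2(value + 1), with all 9 libraries in 1 trended fit of 6 residual degrees of freedom, two-sided, and Benjamini-Hochberg adjustment over 12923 genes with a threshold of 0.05. Fold changes are on that scale, which understates the change of low genes. The code was tested on simulated data. edgeR 4.0.16 and DESeq2 1.42.0 on the recovered reads, other pseudocounts, filters and scalings, and fits without each library were alternatives. Gene spans and exon lengths came from GENCODE M21 (GRCm38), and promoters from RefSeq. Members and lists were chosen with earlier results of these data known. Named genes were all ATPases and paralog sets, every other member past the threshold, and up to 3 partners per list with the smallest adjusted p. Ss18 and Phf10 were named besides, as the progenitor forms of swapped subunits.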

Additional observations from a re-analysis of the deposited data

How the results depend on the processing

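Of the 19 remodelers called in hypoxia, 12 kept their call without any single library and 13 under every other alternative. Of the 27 between T3 and normoxia, 24 and 23 did, and of the 8 between T3 and hypoxia, 0 and 1 (Arid5b). Depth limits genes near 1 CPM, where a library holds few reads. Without a library, the count of higher genes in hypoxia was 2 to 5 and of lower genes 12 to 17, and for T3 against hypoxia 0 to 1 and 0 to 11. For T3 against hypoxia, lower genes numbered 1 without the filter on low values and 2 with only those 6 libraries fitted, and higher genes numbered 1 with a mean of at least 5 CPM required, 1 with median-of-ratios scaling and 2 with DESeq2. Equal column sums gave 9 lower in hypoxia and 7 higher between T3 and normoxia. The causes were not tested. Leaving out the 35 rows off the read step, an alternative chosen after seeing the data, changed no call.

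No paired analysis was possible because the numbers of the hypoxia and T3 columns match no replicate number in the sample titles.

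Every value that changed sign belonged to a difference that had not passed. With equal column sums, the log2 differences in hypoxia became 0.118 for Arid1a, 0.131 for Chd2, 0.0498 for Chd4, 0.104 for Chd8, 0.129 for Chd9, 0.0766 for Smarcb1, 0.0608 for Smarcc2, 0.0717 for Smarcd1 and 0.109 for Smarce1. With T3 against hypoxia they became -0.0123 for Chd3, -0.0232 for Dpf3 and -0.00948 for Smarcc2, and with T3 against normoxia 0.0401 for Actl6b, 0.0186 for Chd2, 0.0945 for Smarcb1, 0.0513 for Smarcc2 and 0.0546 for Smarce1. In hypoxia, Chd2 and Chd9 became 0.00363 and 0.00154 with median-of-ratios scaling, 0.0066 and 0.00354 with edgeR, and 0.00462 and 0.00174 with DESeq2. Dpf3 with T3 against hypoxia became -0.00289 with edgeR and -0.00618 with DESeq2, and Smarcb1 with T3 against normoxia became 0.000168 with median-of-ratios scaling, 0.00709 with edgeR and 0.00103 with DESeq2.

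Leaving out 1 library in turn gave hypoxia differences of -0.0686 to 0.216 for Actl6a, -0.058 to 0.0386 for Arid1a, -0.0201 to 0.0151 for Chd2, -0.202 to 0.924 for Chd7, -0.0602 to 0.00863 for Chd8, -0.0345 to 0.0198 for Chd9, -0.118 to 0.193 for Smarca5-ps and -0.0126 to 0.0944 for Smarcd2. For T3 against hypoxia the ranges were -0.23 to 0.0501 for Baz1a, -0.147 to 0.0384 for Chd2, -0.00713 to 0.0565 for Chd3, -0.0247 to 0.00239 for Chd5, -0.121 to 0.17 for Dpf3, -0.0197 to 0.143 for Smarca5 and -0.00895 to 0.0491 for Smarcc2, and for T3 against normoxia -0.153 to 0.0315 for Chd2, -0.682 to 0.327 for Chd7 and -0.0424 to 0.00795 for Smarcb1. The log2 ratio of Actl6b to Actl6a moved between -0.108 and 0.126 for T3 against hypoxia, and that of Chd3 to Chd4 between -0.118 and 0.0249 in hypoxia.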
